A study of Mus musculus with 6 samples.

Results

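Matrix metalloproteinases (MMPs) and their inhibitor Timp1 were followed in mouse skin on 6 single-channel Affymetrix arrays, 3 from knock-in and 3 from wild-type (WT) samples. They are described here as 10 genes, chosen by name: Mmp2, Mmp3, Mmp8, Mmp9, Mmp10, Mmp12, Mmp13, Mmp14, Mmp19 and Timp1. They are 10 of the 18193 genes that have a probe set with 1 annotated symbol, and were read by 15 of the 45101 probe sets on the array, those whose only symbol was one of these names. The knock-in carries the genotype code KA (source name KAB6) and the WT samples are labelled WT, all on C57BL/6. The changed gene, the sex, the age, the body site and any treatment are not given in the labels, nor whether the samples of a group came from separate animals, so that p-values measure only the spread between these samples.

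MMPs are secreted or membrane-bound proteases that use a zinc ion to cut collagens and other proteins of the extracellular matrix. They are made as inactive precursors, are switched on by removal of a propeptide, and are blocked by the tissue inhibitors of metalloproteinases (TIMPs). In skin they are known for their part in wound closure, inflammation and matrix turnover, with different members made by neutrophils, macrophages, keratinocytes at the wound edge and fibroblasts. Mmp13, Mmp12, Mmp3, Mmp10 and Mmp8 lie in an unbroken run of 10 MMP genes on chromosome 9, in the order Mmp13, Mmp12, Mmp1b, Mmp3, Mmp1a, Mmp10, Mmp8, Mmp27, Mmp20 and Mmp7 (protein-coding genes of RefSeq, GRCm38.p6).

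The region just before the transcript start is shown for 4 of these genes because an element of the form TGANTCA, the site bound by AP-1 (dimers of Fos and Jun proteins), stood there. Timp1 is shown beside them as an inhibitor gene in which it did not. RefSeq promoter windows of GRCm38.p6 (250 bases before to 50 after a start) matched 7 of the 10 genes, with 8 windows, since Mmp12 has 2 starts. Each line gives the 100 bases before the start, 5′ to 3′ on the plus strand. Capitals mark TGANTCA and TATAAA.
Mmp13 (chr9:7272414-7272513): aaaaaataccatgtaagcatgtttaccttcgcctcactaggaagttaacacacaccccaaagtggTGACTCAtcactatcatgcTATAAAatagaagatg
Mmp10 (chr9:7502242-7502341): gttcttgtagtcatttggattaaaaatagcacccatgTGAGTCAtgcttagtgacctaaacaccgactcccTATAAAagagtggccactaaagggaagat
Mmp3 (chr9:7445722-7445821): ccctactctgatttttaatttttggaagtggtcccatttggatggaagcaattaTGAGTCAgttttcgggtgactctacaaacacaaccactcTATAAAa
Mmp12, second start (chr9:7347274-7347373): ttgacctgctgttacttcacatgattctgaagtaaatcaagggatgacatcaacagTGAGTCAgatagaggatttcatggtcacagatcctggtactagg
Timp1 (chrX:20870066-20870165): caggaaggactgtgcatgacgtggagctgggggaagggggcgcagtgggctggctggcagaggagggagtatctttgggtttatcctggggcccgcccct

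TGANTCA, which reads the same on both strands, was in 4 of the 8 windows and in 7.81% of the 32851 windows of 300 bases in the table. It began 35 bases before the start in Mmp13, 63 in Mmp10, 46 in Mmp3 and 44 at the second start of Mmp12. TATAAA, searched on both strands, was in 5 windows (those of Mmp13, Mmp10, Mmp3 and Mmp8 and the second of Mmp12) and in 13.6% of all. It began 16 bases before the start in Mmp13, 29 in Mmp10 and 7 in Mmp3, on the plus strand. In Mmp8 it lay on the minus strand across the start, and in the second Mmp12 window 5 to 10 bases after the start. AGGAAG, the core bound by ETS factors, was in 6 windows on either strand (those of Mmp13, Mmp3, Mmp8, Mmp14 and Timp1 and the first of Mmp12) and in 35.4% of all. No matches of the 3 motifs overlapped. A match describes letters only, and 3 of the genes with TGANTCA were higher in knock-in skin while Mmp12 was lower.

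**Figure D1:**
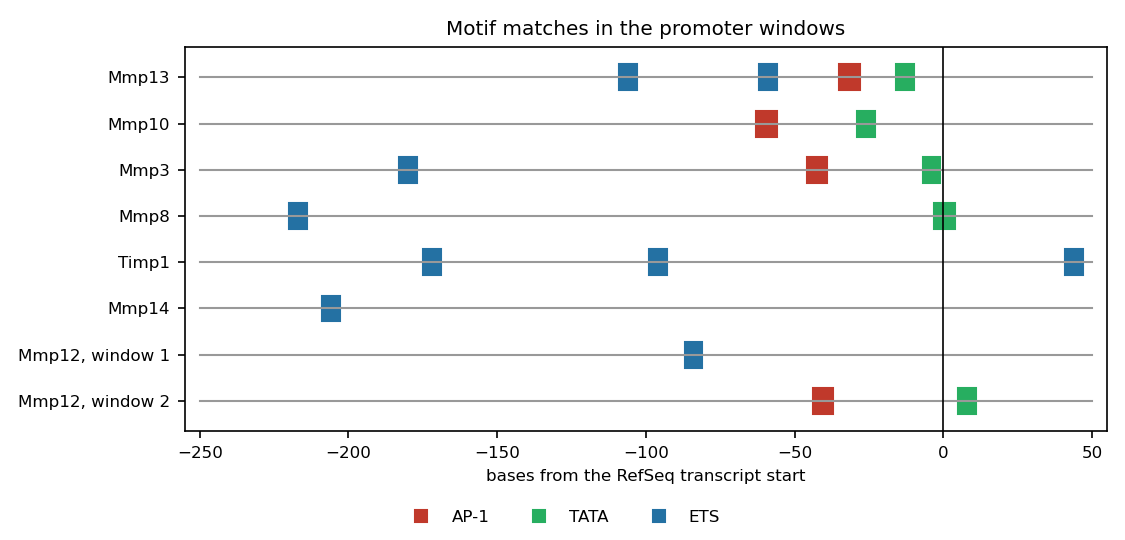
Matches of the AP-1, TATA and ETS motifs in the 8 RefSeq promoter windows of 7 genes. The x axis gives bases from the transcript start, each grey line is a window, and boxes are matches on either strand. The red AP-1 boxes of Mmp13, Mmp10, Mmp3 and the second Mmp12 window all begin between 35 and 63 bases before the start.

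Arrays of a group resembled each other, with Pearson's r over the probe sets tested from 0.981 to 0.984 within knock-in, from 0.976 to 0.983 within WT, and from 0.899 to 0.929 between the groups. The knock-in arrays carried Xist, the RNA of the inactive X chromosome (signals from 3442 to 4005, against 27.8 to 32.5 in WT), and the WT arrays the Y-linked Eif2s3y (from 4.43 to 5.45 in knock-in, against 639 to 721 in WT). Sex and genotype therefore cannot be told apart in any result here, including that of the X-linked Timp1. The 5′ probe set for 18S ribosomal RNA gave 166 to 766 in knock-in and 1314 to 2286 in WT, while the 3′ to 5′ ratios of actin (1.21 to 1.28 in knock-in, 1.22 to 1.28 in WT) overlapped, and the part of the 18S difference in the results was not tested. Among the markers of skin, Krt5 (mean 8241 in knock-in, 5713 in WT) and Krt14 (10382 in knock-in, 6250 in WT) of basal keratinocytes were bright. Both were among the 3 of 6 basal keratinocyte markers that were higher in knock-in by the test below. Col1a2 (10001 in knock-in, 11004 in WT) and Dcn (8543 in knock-in, 8707 in WT) of fibroblasts did not pass it.

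Of the 15 probe sets, 10 were higher in knock-in, 1 was lower and 4 did not pass the test (limma on log2(signal + 16), Benjamini-Hochberg adjusted p under 0.05 over 23153 probe sets). In the same fit 13.0% of all probe sets were higher and 17.3% lower, 30.3% together. For 7 genes (Mmp3, Mmp8, Mmp9, Mmp10, Mmp13, Mmp19 and Timp1) each probe set was higher, for Mmp12 it was lower, and for Mmp2 none passed. The groups did not overlap for 10 of the 15 in the higher and 1 in the lower direction, as was so for 19.4% and 27.1% of all probe sets tested. All 15 probe sets passed the filter on dim signals, but those of Mmp8, Mmp10 and Mmp13 and 1 of Mmp19 did so through the 3 knock-in arrays alone. With whole skin on each array, more cells of a type and more RNA per cell cannot be told apart.

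**Figure D2:**
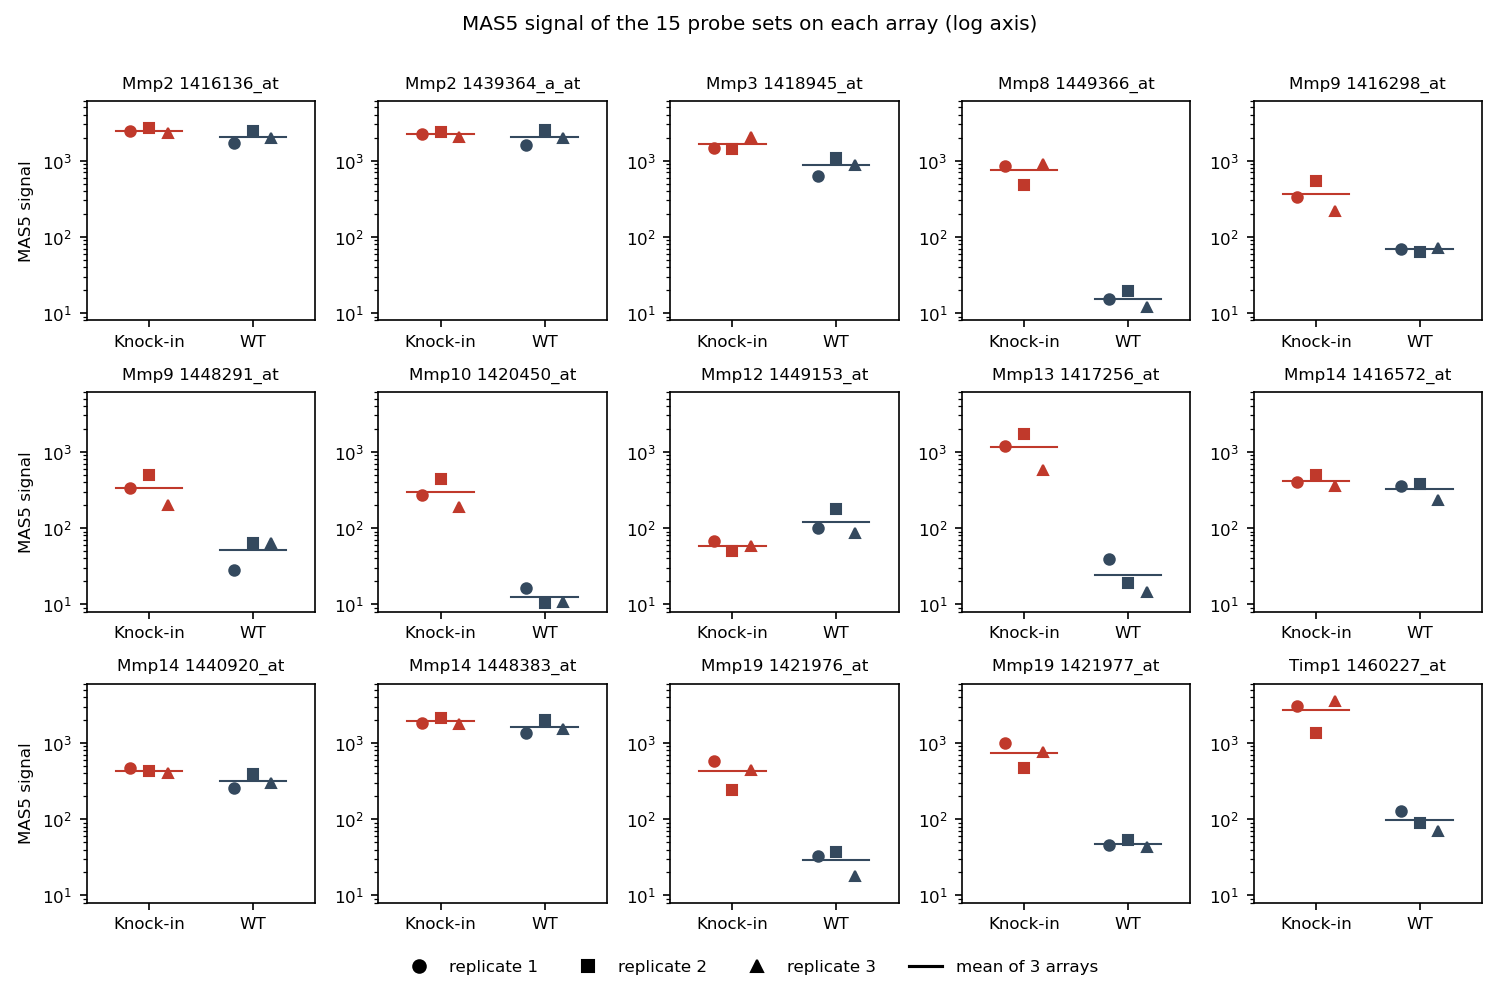
MAS5 signal of each of the 15 probe sets on a log axis, with the knock-in arrays left of the WT arrays in each panel. Symbols are single arrays and lines the mean of 3. For Mmp13, Mmp8, Mmp10, Mmp19 and Timp1 every knock-in array lies far above every WT array, Mmp12 lies below, and both Mmp2 probe sets overlap.

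The collagenases, which cut the triple helix of fibrillar collagen, were among the probe sets with the largest differences. Mmp13, the main interstitial collagenase of mouse skin, had signals of 1190.1, 1711 and 579 on the knock-in arrays, against 39.7, 18.9 and 14.4 on the WT arrays. The lowest knock-in array was thus many times the highest WT array. The means were 1160.0 ± 566 in knock-in and 24.3 ± 13.5 in WT (SD, n = 3 each), a log2 difference of 4.79 ± 0.36 (standard error, adjusted p = 3.59e-05), the 15th largest increase among the 23153 probe sets. Mmp8, the collagenase stored in neutrophil granules, had 860.3, 472 and 913 in knock-in and 15.3, 19.3 and 11.9 in WT. Its log2 difference was 4.55 ± 0.23 (adjusted p = 3.04e-06). Both WT levels lay below the median signal of their arrays (37.7 to 45.8 over the 6 arrays), and the table has no detection calls, so that these folds depend on the offset of 16 and on dim WT signals: with an offset of 1 or 64 the log2 difference was 5.51 or 3.68 for Mmp13 and 5.47 or 3.31 for Mmp8. Timp1, at 4.49, had 4.70 or 3.99, so that the order of the 3 depends on the offset.

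The 2 stromelysins, which cut proteoglycans, laminins and other MMP precursors, differed in size of response. Mmp10 (stromelysin-2), known from keratinocytes of the wound edge, had 273.5, 436 and 187.5 in knock-in, against 16.1, 10.3 and 10.6 in WT. The groups were far apart, and the log2 difference was 3.40 ± 0.26 (adjusted p = 3.69e-05), or 4.43 with an offset of 1 and 2.19 with 64. Mmp3 (stromelysin-1), which fibroblasts also make, was already bright in WT skin. It had 1483, 1411 and 2027 in knock-in, against 626, 1095 and 883 in WT, and every knock-in array stood above the highest WT array. Its means were 1640.5 ± 337 and 868 ± 235, a log2 difference of 0.92 ± 0.20 (adjusted p = 0.00838).

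The gelatinases, which cut denatured collagen and type IV collagen of basement membranes, split. Mmp9 (gelatinase B), a product of neutrophils, macrophages and keratinocytes, had 330.5, 539.8 and 215 in knock-in, against 69.2, 63.99 and 71.9 in WT, by its brighter probe set. The other probe set gave 330.1, 489 and 201 in knock-in and 27.9, 63.2 and 63.9 in WT. By either, the lowest knock-in array was well above the highest WT array. The log2 differences were 2.07 ± 0.26 (adjusted p = 0.00057) and 2.36 ± 0.32 (adjusted p = 0.000772). Mmp2 (gelatinase A), a gene of resting fibroblasts, had 2419, 2643 and 2309 in knock-in, against 1723, 2453 and 1957 in WT, by its brighter probe set. The other gave 2259, 2366 and 2048 in knock-in and 1619, 2507 and 1988 in WT. By both, WT array 2 lay above the lowest knock-in array, so that the groups overlapped. The log2 differences of the 2 Mmp2 probe sets were 0.28 ± 0.13 (adjusted p = 0.134) and 0.15 ± 0.15 (adjusted p = 0.484). The brighter passed without WT replicate 2 (0.42, adjusted p = 0.0232) and with median centring (0.41, adjusted p = 0.0308).

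Mmp14, the membrane-type MMP that activates the precursor of Mmp2 on cell surfaces, had 3 probe sets that disagreed in call. The brightest gave 1851, 2122 and 1782 in knock-in and 1372, 2025 and 1505 in WT, with overlap and a log2 difference of 0.25 ± 0.14 (adjusted p = 0.224). It passed without WT replicate 2 (0.41, adjusted p = 0.0284). A second one gave 406.5, 493 and 359 in knock-in and 359, 373 and 235 in WT, with overlap and a difference of 0.38 ± 0.18 (adjusted p = 0.142). The third gave 468, 433 and 399 in knock-in against 254, 388 and 299.7 in WT, and passed with 0.46 ± 0.15 (adjusted p = 0.0423). That call was lost in 9 of 16 alternatives, including 5 that each left out 1 array, with adjusted p from 0.00866 to 0.124.

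Mmp19 and Mmp12 moved in opposite directions. Mmp19, which cuts basement membrane proteins and has been found in keratinocytes and monocytes, had 996.7, 467 and 757 in knock-in, against 45.5, 53.3 and 43.2 in WT, by its brighter probe set. The other had 584, 245 and 439.8 in knock-in and 33.2, 36.9 and 17.8 in WT. No array of one group came near the other group, and the log2 differences were 3.52 ± 0.23 (adjusted p = 1.65e-05) and 3.22 ± 0.29 (adjusted p = 9.00e-05). The dimmer of these was 3.78 with an offset of 1 and 2.32 with 64. Mmp12, the macrophage elastase, was the only one of the 15 probe sets that fell. It had 66.8, 50.2 and 57.8 in knock-in, against 100.4, 175 and 86.2 in WT, so that the highest knock-in array lay under the lowest WT array. The log2 difference was -0.83 ± 0.22 (adjusted p = 0.0211), and the call was lost without knock-in replicate 2 (-0.75, adjusted p = 0.0595) or 3 (-0.83, adjusted p = 0.0628).

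Timp1, which binds the active site of most secreted MMPs, had signals of 3059, 1359 and 3607 in knock-in, against 129.8, 90.5 and 70.4 in WT. The lowest knock-in array was far above the highest WT array. The means were 2675 ± 1172 and 96.9 ± 30.2, a log2 difference of 4.49 ± 0.33 (adjusted p = 3.25e-05), the 19th largest increase. Inhibition of the proteases was not measured. RNA signals were set against each other within each array, as log2(signal + 16) of an MMP minus that of Timp1, for 9 pairs. This difference was lower in every knock-in array than in every WT array for 6 of the 9, namely Mmp2, Mmp3, Mmp9, Mmp12, Mmp14 and Mmp19. Since Timp1 itself rose by 4.49, a gene that did not change also gives a lower difference. Mmp2, at 0.28 by its brighter probe set, did not pass the test and still gave a lower difference from Timp1. How many of all genes would give a lower difference from Timp1 was not counted, so the 6 cannot be read as particular to these MMPs. For Mmp9 the difference from Timp1 ran from -3.97 to -1.31 in knock-in and from -0.77 to 0.02 in WT. The change was -5.32 for Mmp12, -4.25 for Mmp14, -4.22 for Mmp2, -3.57 for Mmp3, -2.42 for Mmp9 and -0.98 for Mmp19 (exact permutation test, two-sided, p = 0.1 in all 6 cases and 0.15 adjusted over the 9 pairs, where 0.1 is the lower limit with 3 arrays a group). For Mmp13 (0.29), Mmp8 (0.06) and Mmp10 (-1.09) the groups overlapped (exact p = 0.7, 0.8 and 0.4, adjusted 0.787, 0.8 and 0.514). With an offset of 64 it was lower in every knock-in array for 8 of the 9, and both Mmp8 (0.77 with an offset of 1, -0.69 with 64) and Mmp13 (0.81 with 1, -0.31 with 64) changed sign.

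**Figure D3:**
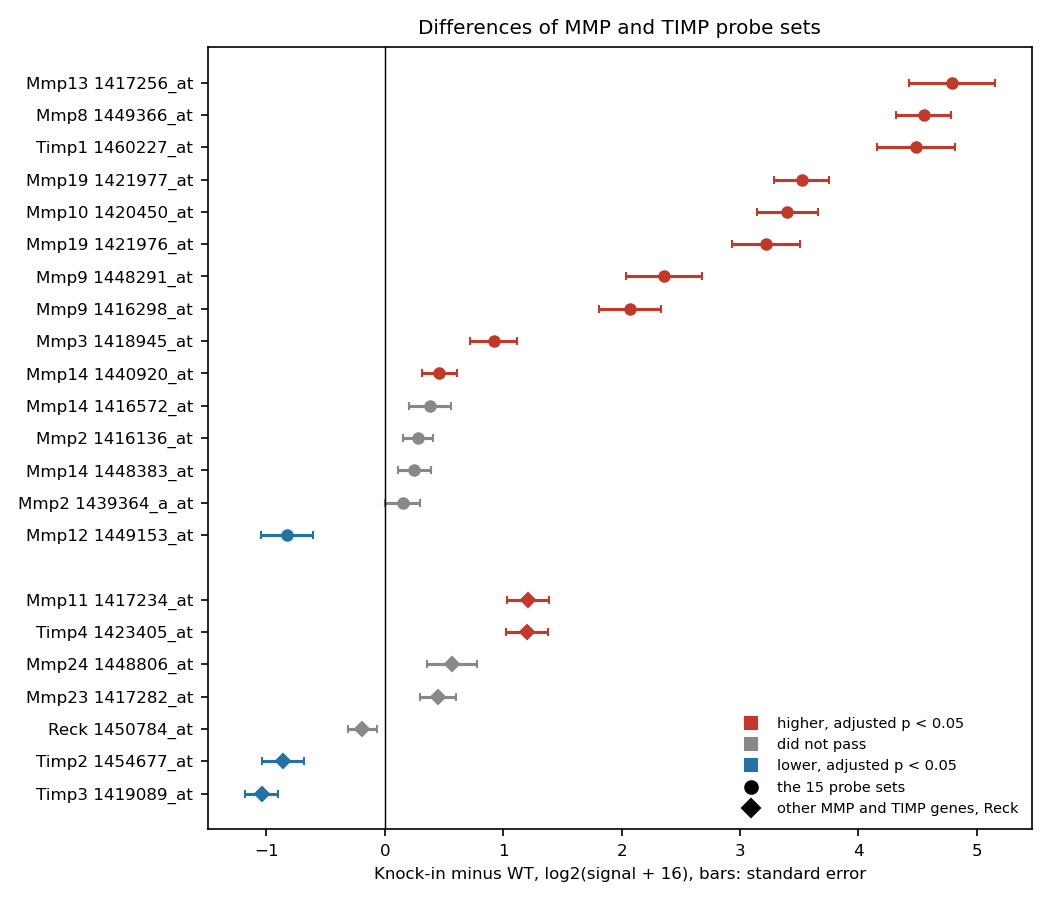
Log2 difference, knock-in minus WT, of the 15 probe sets (circles) and of 7 other genes of the MMP and TIMP families and Reck with 1 probe set each (diamonds). Bars are standard errors and colours give the call. Mmp13, Mmp8 and Timp1 lie between 4.49 and 4.79, Mmp2 near 0, and Mmp12, Timp2 and Timp3 below 0.

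The other inhibitors split, with Timp3 and Timp2 lower and Timp4 higher, as Timp1 was. Timp3, a matrix-bound inhibitor, was lower by all 4 of its tested probe sets, with log2 differences from -1.10 to -0.87. By its brightest it had 594, 814 and 723 in knock-in, against 1294, 1421 and 1710.0 in WT (-1.04 ± 0.14, adjusted p = 0.000797). Timp2, which also takes part in the activation of pro-Mmp2 with Mmp14, was lower by all 5 of its tested probe sets (from -0.86 to -0.42). Its brightest had 1843 ± 92.9 in knock-in and 3440.4 ± 939 in WT. Timp4 was higher by both of its probe sets, with 255.7 ± 38.2 in knock-in and 103.8 ± 28.9 in WT by the brighter (1.20 ± 0.18, adjusted p = 0.00157). The membrane-anchored inhibitor Reck did not pass (-0.19 ± 0.12, adjusted p = 0.258).

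Of 14 other MMP genes, 9 had a probe set of their own and 3 passed the filter on dim signals. Taking the brightest probe set of each gene, 14.9% of 11680 genes were higher and 16.3% lower, with a median log2 difference of -0.02. Mmp11 (stromelysin-3), a gene of stromal cells, was higher, with 236, 331 and 251 in knock-in against 83.3, 133 and 111 in WT (1.21 ± 0.18, adjusted p = 0.00123). Mmp23 (0.45, adjusted p = 0.0522) and Mmp24 (0.57, adjusted p = 0.0616) did not pass, but were higher after quantile normalization or median centring, which brought the count of higher genes to 3. Mmp1b, which lies between Mmp12 and Mmp3, was too dim to be tested, with means of 44.2 ± 22.9 in knock-in and 6.62 ± 1.66 in WT, and was named after its values were seen.

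Among the related ADAM and ADAMTS metalloproteinases, 10 of 17 tested genes were higher and 2 lower, with a median log2 difference of 0.72. Adamts4, an aggrecanase, had 297 ± 38.2 in knock-in and 35.0 ± 12.1 in WT (2.64 ± 0.19). Adamts15 and Adamts1, proteases of large proteoglycans, had differences of 1.87 ± 0.14 and 1.22 ± 0.10. Adamts16 went the other way, with 82.8 ± 13.5 in knock-in and 515 ± 141 in WT (-2.40 ± 0.19).

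Proteases that can activate MMP precursors counted 3 higher and 1 lower of 7 tested, with a median of 0.57. Without the filter on dim signals 3 were higher and 1 lower of 13. With it set to all 6 arrays 2 were higher and 1 lower of 6. The mast cell enzymes Tpsb2 (3.20 ± 0.15), a tryptase, and Cma1 (1.69 ± 0.19), a chymase, and the plasminogen activator Plat (0.96 ± 0.18) were higher. Tpsb2, with means of 323 ± 42.1 in knock-in and 20.9 ± 4.62 in WT, passed the filter through the 3 knock-in arrays alone. St14 (matriptase), an epidermal serine protease, was lower (-0.98 ± 0.15). The neutrophil serine proteases Elane, Ctsg and Prtn3 did not pass the filter, with mean signals from 4.73 to 24.6 in knock-in and from 9.45 to 39.0 in WT, and were named after their values were seen.

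Of 17 tested substrates and other matrix genes, 11 were higher and 1 lower, with a median of 0.88. Col7a1, the anchoring fibril collagen, had 712, 1155 and 686 in knock-in against 209, 262 and 204 in WT (1.81 ± 0.19). Lama3, a laminin chain of the epidermal basement membrane, had a difference of 1.73 ± 0.19, and the fibril collagen Col5a2 and the basement membrane collagen Col4a1 had 1.11 ± 0.13 and 0.88 ± 0.09. The gene that was lower was Col1a1, the main collagenase substrate of the dermis, with 3105 ± 289 in knock-in and 4505 ± 752 in WT (-0.52 ± 0.13, adjusted p = 0.0152).

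Cytokines and transcription factors known to induce MMP genes counted 11 higher and 1 lower of 17 tested, with a median of 0.54. Without the filter on dim signals 10 were higher and 1 lower of 22. With it set to all 6 arrays 7 were higher and 1 lower of 12. Il1b had 1252, 1011 and 1218 in knock-in, against 48.0, 45.9 and 53.2 in WT (4.17 ± 0.12). Il6 and Osm, cytokines of the same family, had differences of 3.74 ± 0.22 and 1.72 ± 0.15. Their mean WT signals were only 4.70 and 18.9. Both passed the filter through the 3 knock-in arrays alone, as did Fosl1 and Tgfb1, named after their values were seen. The AP-1 subunit Fos had 1313, 1278 and 994 in knock-in, against 329, 277 and 245 in WT (2.01 ± 0.14). Not all AP-1 subunits moved this way, as was seen from their values: Fosl1 (1.67 ± 0.20) and Junb (0.54 ± 0.12) were higher, Jund was the lower gene of the list (-0.45 ± 0.10, adjusted p = 0.00984), and Jun (-0.06, adjusted p = 0.704) and Fosl2 (-0.22, adjusted p = 0.0925) did not pass. Of 6 tested genes for binding and clearance of MMPs, 5 were higher, among them Lcn2 (5.97 ± 0.26), which forms a complex with MMP-9 in humans, the surface receptor Cd44 (0.75 ± 0.10) and the endocytic receptor Lrp1 (0.87 ± 0.16). Lcn2 passed the filter through the 3 knock-in arrays alone. Without the filter 5 of 7 of these genes were higher, and with it set to all 6 arrays 3 of 4 were.

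The genes that rose did not share one order over the 3 knock-in arrays, as was seen from their values. Mmp9, Mmp10 and Mmp13 were highest in knock-in 2 and lowest in knock-in 3. For Mmp13 the deviations from its knock-in mean were 0.68 in knock-in 2 and -0.85 in knock-in 3, on the log2(signal + 16) scale. Mmp8, Mmp19, Timp1 and Mmp3 were lowest in knock-in 2, where Timp1 deviated by -0.85 and Mmp8 by -0.59. Of all 2999 probe sets called higher, 49.7% were lowest in knock-in 2 and 25.3% in knock-in 3, and of the 782 higher by a log2 difference of 1 or more these shares were 60.4% and 26.0%. Both probe sets of Mmp9 gave the same order, as did both of Mmp19.

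Marker genes of leukocytes and keratinocytes also differed in that order. The 6 tested neutrophil markers were all higher in knock-in, S100a9 for example with 6877, 5248 and 6040 in knock-in against 68.4, 116 and 119 in WT, and all 6 were lowest in knock-in 2. Of these, Cxcr2, Csf3r and Ngp passed the filter on dim signals through the 3 knock-in arrays alone. Without the filter 7 of 10 neutrophil markers were higher, and with it set to all 6 arrays 3 of 3 were. The 10 neutrophil markers on the array summed to signals from 15379 to 19283 in knock-in and from 663 to 916 in WT. S100a8 and S100a9, which keratinocytes can also make, gave most of that sum, with means of 9374 and 6055 in knock-in against 478 and 101 in WT. Among the granule genes, Ngp was higher (100.1 ± 33.8 in knock-in, 17.7 ± 9.03 in WT, 1.78 ± 0.27, adjusted p = 0.00153). Camp (46.4 in knock-in, 7.38 in WT) and Mpo (41.6 in knock-in, 20.7 in WT) were too dim to be tested but did not overlap. Elane (9.34 in knock-in, 9.45 in WT) and Ltf (21.5 in knock-in, 18.5 in WT), also too dim, overlapped. Of 11 macrophage markers, 7 were higher, led by Cd14 (4.20 ± 0.22) and Cd163 (2.70 ± 0.26), and all 7 were lowest in knock-in 2, while Adgre1, Csf1r, Cd68 and C1qb did not pass. Of 5 wound keratinocyte markers, 4 were higher, among them Krt16 (3.64 ± 0.21) and Krt6b (4.66 ± 0.50), and all 4 were lowest in knock-in 3. The fifth, Krt17, was lower (-0.49 ± 0.12, adjusted p = 0.0134), a call that was lost with median centring. Of 6 basal keratinocyte markers, 3 were higher and all 3 were lowest in knock-in 3, while Trp63, Itgb4 and Col17a1 did not pass. The part of these cell types in the MMP results was not tested.

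**Figure D4:**
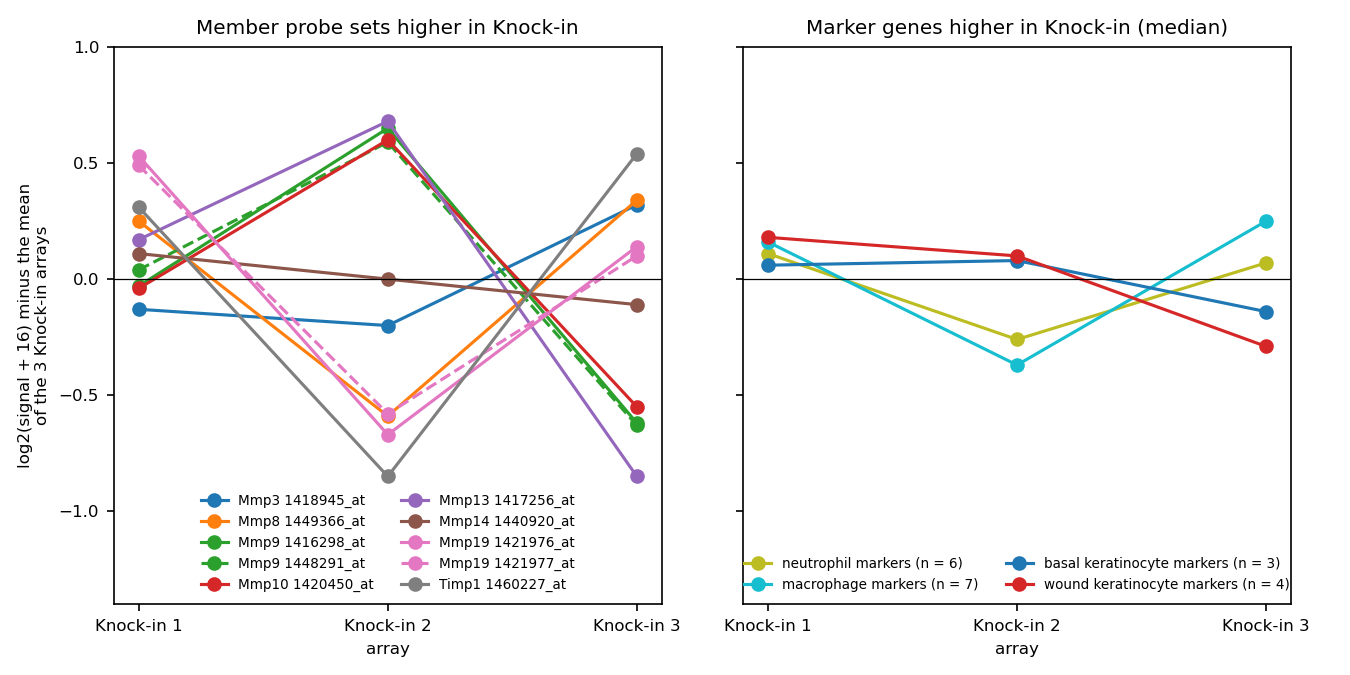
Deviation of each knock-in array from the mean of the 3, on the log2(signal + 16) scale, for the 10 probe sets higher in knock-in (left) and the median over marker genes higher in knock-in (right). Lines join values of one item and the arrays have no order. Mmp9, Mmp10 and Mmp13 peak in knock-in 2, while Timp1, Mmp8 and Mmp19 are lowest there, as are the medians of the neutrophil and macrophage markers.

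Markers of other tissues were set beside the collagenases, since Mmp13 and Mmp9 are also made in cartilage and bone. The cartilage and bone genes Col2a1, Col9a1, Col10a1, Acan and Ibsp were too dim to be tested. Their mean signals ran from 0.889 to 23.9 in knock-in and from 1.74 to 31.0 in WT. Of the 3 genes tested in this list Comp (0.88) and Acp5 (0.78) were higher and Ctsk (-0.85) was lower. Of 5 mast cell markers 3 were higher (2 of 4 with the filter on dim signals set to all 6 arrays), and of 5 endothelial markers 4 were higher. Fibroblast markers counted 2 higher and 1 lower of 8, skeletal muscle markers 4 lower of 5, T cell markers 1 lower of 2, and adipocyte markers 0 of 3 in either direction (1 with an unadjusted p under 0.05, and 1 higher after median centring).

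The genes nearest to Mmp13 over the 6 arrays, by Euclidean distance of centred log2(signal + 16) values among 11680 genes, were Ifi202b (1.18), Sprr2i (1.33) and Slpi (1.40). Ifi202b, an interferon-inducible gene, shared the order of Mmp13 in knock-in, with 1236, 2066 and 644 against 53.2, 62.4 and 55.2 in WT. Nearest to Timp1 were Mmp8 (0.60) and the chemokines Ccl3 (0.63) and Cxcl5 (0.67). Cxcl5, which attracts neutrophils, had 564, 244 and 419 in knock-in and from 0.427 to 4.12 in WT.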

How the data were processed

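The values are signal intensities on a linear scale as deposited, which the authors computed with MAS5 per the submitters' processing notes. No source used here states the MAS5 version or its settings. A trimmed mean (2% off each end) came to 150.0 on all 6 arrays, which puts them on one scale. Their medians ran from 37.7 to 45.8, and no further normalization was applied. Centring beyond that scale is unknown, and depth has no meaning for arrays, whose number (6) limits precision.

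The 64 control probe sets were left out. Symbols came from the platform annotation (1 symbol for 34945 probe sets, several for 932, none for 9160). Probe sets above their array's median on at least 3 arrays (23153) were tested as log2(signal + 16), knock-in minus WT, with limma 3.58.1 in R 4.3.3 (lmFit and eBayes with trend, two-sided), adjusted by Benjamini-Hochberg at 0.05. The offset understates changes of dim genes. Errors are SDs of signals and standard errors of differences. For gene lists the probe set with the highest mean stood for its gene. The procedure was tested on simulated data. All 32851 RefSeq windows of 300 bases, among them the 8 of these genes, were searched for 3 motifs.

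The members and lists were chosen with earlier results of these data known. Text names all 10 genes, up to 4 per list with the smallest p, and the 3 nearest to Mmp13 and Timp1; markers beyond that were named after their values were seen. Alternatives were other offsets, filters, scalings, variance priors, array weights, probe set choices, a replicate block and leaving out each array. Replicate numbers were not treated as pairs in the main fit. Deviations from group means correlated at -0.238, -0.338 and -0.049 for numbers 1 to 3, which cannot tell whether like-numbered samples were matched.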

Additional observations from a re-analysis of the deposited data

How the results depend on the processing

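The 10 higher and 1 lower of the 15 probe sets were counted again under 17 alternatives. Each probe set of Mmp3, Mmp8, Mmp9, Mmp10, Mmp13, Mmp19 and Timp1 kept its direction and its call wherever it was tested. The count of higher probe sets ran from 9 to 12 with 1 array left out, and was 4 with the filter set to all 6 arrays, which left 9 of the 15 to be tested. The lower count ran from 0 to 1 with 1 array left out. Over all probe sets 7010 were called, 3637 with 1 probe set a gene (11680 tested), and from 4418 to 6569 with 1 array left out, the lowest without WT replicate 3. The dimmer Mmp2 probe set, at 0.15, was -0.01 without WT replicate 1 and 0.30 without WT replicate 2 (adjusted p = 0.969 and 0.0963). With the replicate number as a block 4888 probe sets were called and 9 of the 15 were higher, the single Mmp14 call being lost, and no other call of the 15 changed. Median centring raised differences by 0.13 (median) and made 63.9% of calls higher, against 42.8% in the values as reported. Over all single differences and alternatives the call and direction stayed in 229 cases, 11 lost the call, 3 gained it and 1 turned sign, and the cause was not tested. The number of arrays limits precision, and dim WT signals make the folds of Mmp8, Mmp10, Mmp13 and the dimmer Mmp19 probe set depend on the offset. The folds of Mmp9 and of the brighter Mmp19 probe set also moved with it. With an offset of 1 or 64 the log2 difference was 2.29 or 1.61 for the brighter Mmp9 probe set and 2.69 or 1.76 for the other. For the brighter Mmp19 probe set it was 3.88 or 2.80. Without knock-in replicate 2, Timp1 (4.92) lay above Mmp8 (4.85) and Mmp13 (4.44).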
